A study of Mus musculus with 12 samples.

Results

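The renin-angiotensin system is described here through 5 of its genes, Agtr2, Agtr1a, Agt, Ace and Enpep, found by their symbols among 56495 genes in RNA sequencing of the urogenital sinus of mouse embryos at stage E18.5. All 5 were present, and all 5 were among the 13904 genes that reached 1 FPKM in 3 or more libraries and were tested. FPKM counts the fragments of a gene relative to the length of its transcript and to all mapped fragments of the library, so that levels can be compared between genes of different length. Agtr2 was chosen by its measured values, because it was among the genes with the largest falls in mutant females. The female comparison of genotypes is therefore given as a description, with no test. The other 4 genes complete the pathway around it and were listed with results of these data known.

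The 12 libraries formed 4 groups of 3: mutant males, wild type males, mutant females and wild type females, all collected at the same stage. Mutant embryos carried the genotype Inv(Itga6-nsi)d11lac, by its name an inversion that breaks at Itga6, which shares its chromosome with the HoxD cluster, combined with an allele called d11lac. The labels did not say where the end called nsi lies, what d11lac changes, or whether the replicates of a group were separate embryos. The p-values therefore measure the spread between these libraries. The dissected tissue was cut away from the bladder and held the proximal urethra, and in females also the vagina, so sex and the presence of vaginal tissue cannot be told apart.

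The angiotensin hormones are cut from a single precursor protein, angiotensinogen (Agt). Renin releases angiotensin I, and angiotensin-converting enzyme (Ace) trims it to angiotensin II, which acts on a pair of receptor types with largely opposing effects. The type 1 receptor (Agtr1a) couples to Gq proteins and drives contraction of blood vessels and release of aldosterone, whereas the type 2 receptor (Agtr2) is known for high levels in fetal mesenchyme and lower levels after birth. Glutamyl aminopeptidase (Enpep) removes the first residue of angiotensin II and so degrades it. In mice, loss of Agtr2 is known to cause malformations of the kidney and urinary tract in some animals.

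The 250 bases before the start of a gene are shown for the 3 members that differed most between groups, Agtr2, Enpep and Ace, from RefSeq on build GRCm38.p6. The 4 members with an entry, of 5, were searched on both strands for 3 motifs. Capitals mark the TATAA core of the TATA box, or TTATA, the same letters on the other strand; in Ace both overlap as TTATAA. The Agtr2 window was chrX:21484374-21484623 on the plus strand, the Enpep window chr3:129332750-129332999 on the minus strand and the Ace window chr11:105967698-105967947 on the plus strand.
Agtr2: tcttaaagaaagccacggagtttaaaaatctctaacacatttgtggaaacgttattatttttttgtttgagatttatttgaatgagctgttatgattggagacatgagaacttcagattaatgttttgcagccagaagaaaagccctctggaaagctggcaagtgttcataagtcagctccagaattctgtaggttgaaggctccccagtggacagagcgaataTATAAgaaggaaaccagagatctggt
Enpep: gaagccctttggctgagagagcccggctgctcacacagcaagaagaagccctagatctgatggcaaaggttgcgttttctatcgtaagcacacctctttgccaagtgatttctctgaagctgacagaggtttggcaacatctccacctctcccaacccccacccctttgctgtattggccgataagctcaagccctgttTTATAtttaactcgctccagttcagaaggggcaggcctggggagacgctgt
Ace: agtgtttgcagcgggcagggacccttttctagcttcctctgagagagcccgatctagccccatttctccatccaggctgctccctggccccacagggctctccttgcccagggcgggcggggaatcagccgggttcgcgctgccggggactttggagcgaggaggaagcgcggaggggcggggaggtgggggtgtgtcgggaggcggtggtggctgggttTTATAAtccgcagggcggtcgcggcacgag
The TATAA core began at -26 from the start of Agtr2, counted in bases before the start, at -29 in Ace and at -30 in Agt, and TTATA began at -51 in Enpep. These letters, on either strand, were in 22.8% of 32851 RefSeq windows of the same length. Neither AGAACA, a core motif of androgen receptor sites, nor CAATAAA, a motif bound by group 13 HOX proteins, was in any of these windows, and 16.1% and 4.2% of all windows held them. The Agtr2 window was poor in G and C, at 38.4%, against 52.4% in Enpep and 67.2% in Ace. Ace has another listed start, whose window held none of the 3 motifs. A match is a description of letters and no evidence of binding.

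Library properties bear on every level below. Relative sequencing depth, read from the steps of the lowest FPKM values, was 0.582 to 0.717 in the 6 mutant libraries and 0.81 to 1.0 in the 6 wild type libraries, so depth and genotype cannot be told apart. FPKM sums ranged from 276713 to 401093, and each library was divided by a scaling factor between 0.748 and 1.13. As a check of the labels, Hoxd13, a gene of the HoxD cluster, ranged from 4.01 to 6.22 scaled FPKM in mutant males against 15.1 to 18.8 for wild type males, and from 3.15 to 5.64 in mutant females against 16.1 to 20.4 for wild type females. Of 8 genes listed for the urogenital sinus, none stood at 0 throughout a group. Mutant female 1 stood apart from mutant females 2 and 3, with 1670 against 798 and 1030 summed scaled FPKM of 12 epithelial markers and 2610 against 5410 and 4800 of 12 mesenchymal markers. Liver markers summed to 49.7 in mutant male 3, 25.4 in mutant female 1 and 19.8 in mutant female 3, and to 6.96 or less in the other 9 libraries. The kidney marker Umod was listed at 0 in all 12. The 7 kidney markers, Umod included, summed to 2.05 scaled FPKM in mutant female 1 and to 0.296 to 0.574 in the other libraries.

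Agtr2 was the member with by far the highest level in every library (ENSMUSG00000068122, chrX:21350783-21355403, plus strand, mm39). It stood at 34.8, 30.4 and 52.8 scaled FPKM in mutant males 1 to 3 and at 88.3, 74.3 and 77.7 in wild type males. The mutant females had 17.3, 34.6 and 19.2 scaled FPKM and the wild type females 64.7, 83.1 and 81.0. In both sexes every mutant library lay below every wild type library. In males 43.5% of all genes tested had groups that did not overlap. In females, whose values chose the gene, the separation is a description, and no such share was computed. From the lowest mean upwards, mutant females averaged 23.7 ± 9.52, mutant males 39.3 ± 11.9, wild type females 76.3 ± 10.1 and wild type males 80.1 ± 7.35 scaled FPKM (SD, n = 3 each). The mutant groups overlapped through the highest mutant female library, and the wild type groups overlapped as well.

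**Figure D1:**
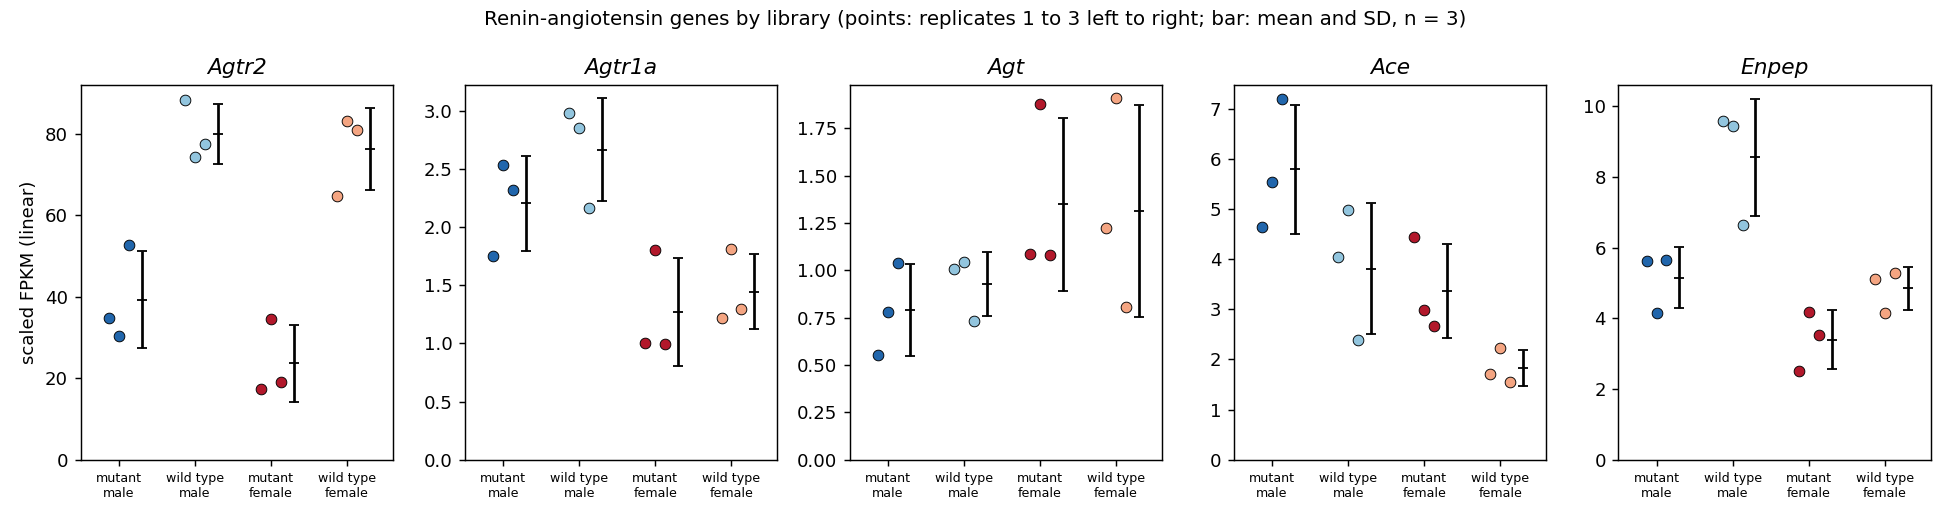
Scaled FPKM (linear axis from 0) of the 5 genes in each of the 12 libraries; points are replicates 1 to 3 from left to right within mutant males, wild type males, mutant females and wild type females, and bars are the mean and SD (n = 3). Agtr2 lies between 17.3 and 52.8 in the mutant libraries and between 64.7 and 88.3 in the wild type libraries.

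In males, whose libraries did not enter the choice of the gene, Agtr2 fell to 0.482 of the wild type level on the scale with 0.5 added to each value. The log2 difference of mutant minus wild type males was -1.05 (SE 0.25, limma adjusted p = 0.0151 over all genes tested). In females, where its low level was the reason for its choice, the log2 difference of mutant minus wild type was -1.72 (SE 0.25). The difference between these, female minus male, was -0.67 (SE 0.35) on the log2 scale and has no test, since it rests on the same mutant female libraries. In whole tissue, fewer cells that express a gene and less of its RNA per cell cannot be told apart.

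The fall of Agtr2 in males was not robust to the processing. The Agtr2 transcripts had a GC content of 40.6%, lower than all but 3.52% of the genes tested, and the differences between mutant and wild type males followed GC content across genes. Over 5 GC classes of equal size, from the lowest to the highest, the median log2 difference in males was -0.31, -0.1, 0.02, 0.11 and 0.22. Between mutant and wild type females the trend was steeper, at -0.41, -0.14, 0.03, 0.15 and 0.28. After correction of each library for GC content and transcript length, Agtr2 differed by -0.58 between mutant and wild type males (SE 0.23, limma adjusted p = 0.177), which ended the call, and by -1.12 (SE 0.23) between mutant and wild type females. The call was also lost without mutant male 1 (log2 difference -0.98, limma adjusted p = 0.0622), without mutant male 2 (-0.89, limma adjusted p = 0.0592) and without wild type male 1 (-0.98, limma adjusted p = 0.0603).

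Mesenchyme, where Agtr2 is known to be expressed in the fetus, was measured by 12 markers, none of which was listed at 0 throughout a group. Their sum was 3140 to 4860 scaled FPKM in mutant males against 3700 to 4430 for wild type males, and 2610 to 5410 in mutant females against 4060 to 4550 in wild type females. Collagen genes made up most of this sum, and Col3a1 alone averaged 1650 scaled FPKM in mutant males and 1690 in wild type males. In males 3 of the 12 markers fell and 0 rose, beside the 20.3% of all genes tested that passed and the 11.6% that fell, and the median log2 difference of the list was -0.18. The 3 were the matrix genes Aspn, Ogn and Postn, with log2 differences of -1.33, -0.96 and -1.05 (limma adjusted p = 0.00768, 0.0172 and 0.0437) beside -1.05 in Agtr2. Ogn averaged 48.6 ± 17.3 scaled FPKM in mutant males and 91.5 ± 9.82 in wild type males (SD, n = 3 each). Lum and Dcn, also matrix genes, differed by -0.96 and -0.59 and did not pass (limma adjusted p = 0.0575 and 0.0745). Mutant female 1, with the lowest mesenchymal sum, also had the lowest Agtr2, and mutant female 3, with a sum of 4800, had 19.2 scaled FPKM of Agtr2. Markers of other tissues moved in both directions in males. The sum of 10 skeletal muscle markers was 561 to 912 scaled FPKM in mutant males and 954 to 1310 in wild type males, and 7 of the 10 fell, with a median log2 difference of -0.95. The sum of 10 neural markers was 175 to 221 in mutant males and 272 to 307 in wild type males, without overlap, and by limma 0 of the 9 tested passed, with 2 at an unadjusted p under 0.05. No marker of either list stood at 0 throughout a group. In females the skeletal muscle sums overlapped, at 572 to 690 in mutants and 593 to 798 in the wild type, and so did the neural sums. In males 3 of 12 epithelial, 1 of 8 pericyte and 1 of 7 blood markers rose, and 0 of these lists' markers fell. The median log2 differences of these 3 lists were 0.2, 0.39 and 1.99. Of 10 endothelial markers 0 rose and 1 fell. The part of tissue makeup in the Agtr2 difference was not tested.

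**Figure D2:**
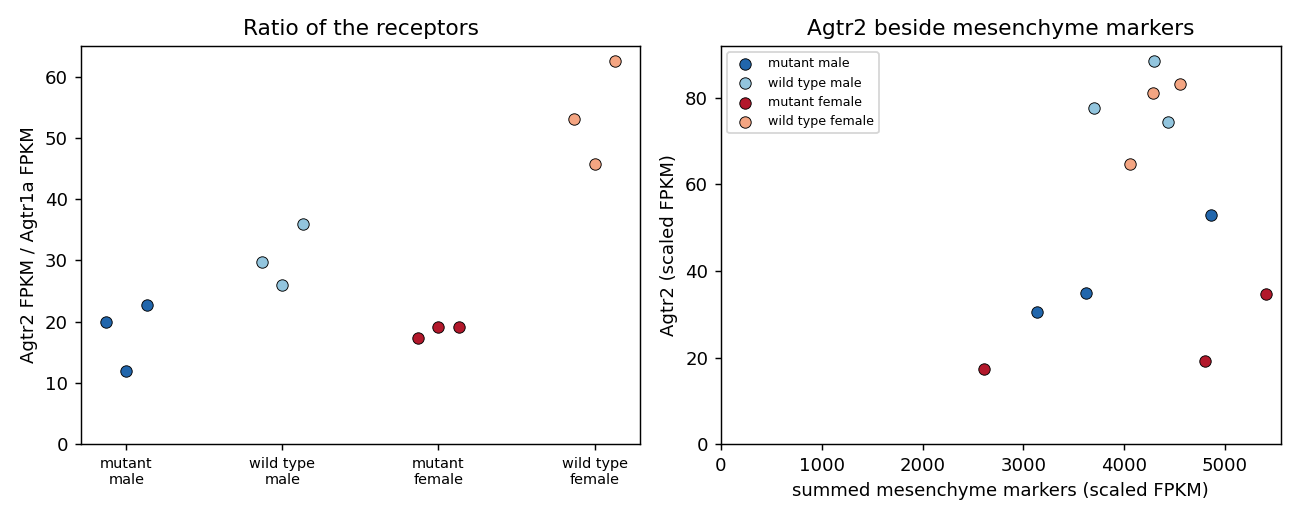
Left, the ratio of Agtr2 FPKM to Agtr1a FPKM (linear axis from 0) in each library of the 4 groups; right, Agtr2 in scaled FPKM against the summed scaled FPKM of 12 mesenchymal markers, 1 point per library. The ratio is 12 to 22.7 in the mutant libraries, 26.0 to 36.0 in wild type males and 45.8 to 62.5 in wild type females. The mesenchymal sums run from 2610 to 5410 in the mutant libraries and from 3700 to 4550 in the wild type libraries.

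Agtr1a, the type 1 receptor, was the minor receptor in this tissue (ENSMUSG00000049115, chr13:30520424-30566850, plus strand, mm39). It stood at 1.75, 2.53 and 2.32 scaled FPKM in mutant males and at 2.98, 2.85 and 2.16 in wild type males. In mutant females it stood at 0.999, 1.80 and 0.998 scaled FPKM, and in wild type females at 1.22, 1.81 and 1.30. The genotypes overlapped in both sexes, while all 3 wild type males lay above all 3 wild type females. Between mutant and wild type males the log2 difference was -0.23 (SE 0.2, limma adjusted p = 0.461), and between mutant and wild type females it was -0.16 (SE 0.2), given without a test.

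Per length of transcript, Agtr2 exceeded Agtr1a in every library. The ratio of Agtr2 to Agtr1a FPKM was 19.9, 12 and 22.7 in mutant males and 29.7, 26.0 and 36 in wild type males. It was 17.3, 19.2 and 19.2 in mutant females and 53.1, 45.8 and 62.5 in wild type females. The ratio was lower in every mutant library than in every wild type library, and wild type males lay below wild type females with no overlap. This ratio contains the Agtr2 values of the mutant females that chose the gene, so it is a description.

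Agt, the precursor, had the lowest level of the 5 genes by group mean in males, and its female means lay close to those of Agtr1a (ENSMUSG00000031980, chr8:125283273-125296445, minus strand, mm39). It stood at 0.552, 0.779 and 1.04 scaled FPKM in mutant males and at 1.01, 1.05 and 0.735 in wild type males. The mutant females had 1.09, 1.88 and 1.08 scaled FPKM and the wild type females 1.22, 1.91 and 0.806. The genotypes overlapped in both sexes, and mutant males lay below mutant females without overlap. Between mutant and wild type males the log2 difference of Agt was -0.16 (SE 0.25, limma adjusted p = 0.687), and between mutant and wild type females it was 0.05 (SE 0.25), given without a test. At such levels the added 0.5 makes fold changes look smaller.

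Ace, the converting enzyme, was higher in mutants on average in both sexes (ENSMUSG00000020681, chr11:105858771-105880790, plus strand, mm39). It stood at 4.64, 5.55 and 7.19 scaled FPKM in mutant males and at 4.04, 4.99 and 2.40 in wild type males. The mutant females had 4.44, 2.99 and 2.66 scaled FPKM and the wild type females 1.70, 2.24 and 1.56. The genotypes overlapped in males and not in females, where the share of all genes that did not overlap was not computed. In males the log2 difference of mutant minus wild type was 0.58 (SE 0.25, limma unadjusted p = 0.0401, adjusted p = 0.124), which did not pass the test. In females it was 0.71 (SE 0.25), given without a test. Endothelium, a main site of Ace in the adult, was measured by 10 markers, whose sum was 148 to 182 scaled FPKM in mutant males against 134 to 167 for wild type males, and 107 to 151 in mutant females against 142 to 166 in wild type females.

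Enpep, the aminopeptidase that degrades angiotensin II, was the other member that differed between the genotypes in males (ENSMUSG00000028024, chr3:129062824-129126369, minus strand, mm39). It stood at 5.63, 4.14 and 5.66 scaled FPKM in mutant males and at 9.59, 9.43 and 6.63 in wild type males. The mutant females had 2.51, 4.18 and 3.52 scaled FPKM and the wild type females 5.12, 4.15 and 5.28. Every mutant male lay below every wild type male, and in females the ranges overlapped by the highest mutant library. In males Enpep fell to 0.626 of the wild type level, a log2 difference of -0.68 (SE 0.19, limma adjusted p = 0.0293). In females the log2 difference was -0.47 (SE 0.19), given without a test. The lower sums of skeletal muscle and neural markers in mutant males go with Enpep as with Agtr2, and their part in its difference was not tested.

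This call, too, depended on single libraries and on the processing. Without mutant male 1, mutant male 2, wild type male 1 or wild type male 2, the log2 difference of Enpep in males was -0.74, -0.54, -0.59 and -0.6, in that order, with limma adjusted p = 0.0627, 0.109, 0.112 and 0.0946. With the GC and length correction it was -0.54 (SE 0.19, limma adjusted p = 0.127). The GC content of its transcripts, 46.6%, was at the 25.8th percentile of the genes tested.

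Of the 5 members, 2 passed the test between mutant and wild type males, and both fell. Of all genes tested, 20.3% passed in either direction and 11.6% fell, so the count rests on a background in which many genes differed. The same 2 members had groups that did not overlap, against 43.5% of all genes tested. The median log2 difference of the 5 members in males was -0.23, against 0.0 over all genes tested.

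**Figure D3:**
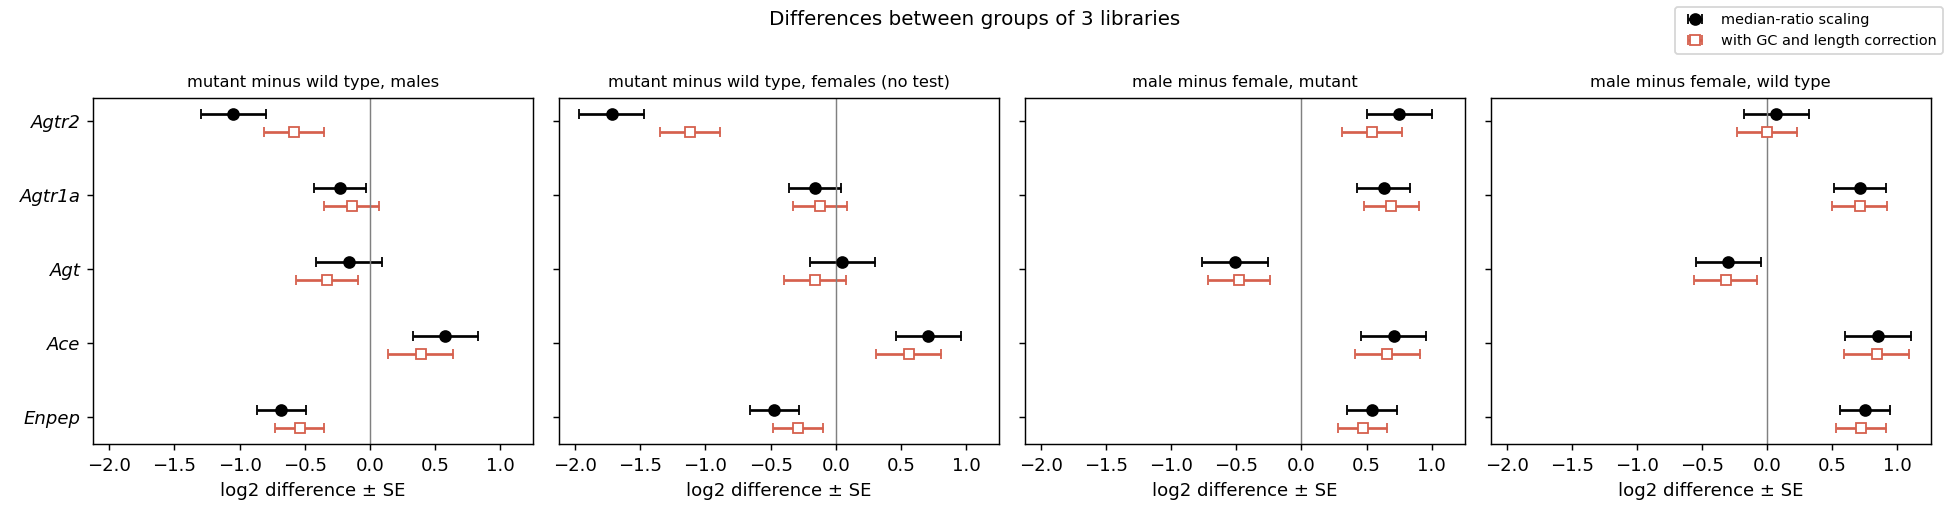
Log2 difference and SE (limma, 3 libraries per group) of the 5 genes between mutant and wild type males, mutant and wild type females, mutant males and mutant females, and wild type males and wild type females, with median-ratio scaling (filled circles) and after GC and length correction (open squares). The correction moves Agtr2 to -0.58 in males and -1.12 in females, and leaves the male minus female differences of Agtr1a, Ace and Enpep above 0.

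Between the sexes the members followed another order. In the wild type, Agtr1a, Ace and Enpep were higher in all 3 males than in all 3 females, while Agtr2 and Agt overlapped. Groups that did not overlap were seen for these 3 of 5 members and for 31.8% of all genes tested. Wild type males exceeded wild type females in Agtr1a by 0.71 on the log2 scale (SE 0.2, limma adjusted p = 0.0945), in Ace by 0.85 (SE 0.25, limma adjusted p = 0.0992) and in Enpep by 0.75 (SE 0.19, limma adjusted p = 0.0616). Agtr2 differed by 0.07 (SE 0.25, limma adjusted p = 0.909) and Agt by -0.3 (SE 0.25, limma adjusted p = 0.546). By limma 0 of 5 members thus passed after adjustment, beside 3.18% of all genes tested. An unadjusted p under 0.05 was seen for 3 members, and no share of all genes at that threshold was computed here or elsewhere. This comparison shares the wild type female libraries with the one that chose Agtr2. A choice by a fall in mutant females favours high wild type female values, which can lower the male minus female difference. The small difference of Agtr2 is therefore no evidence of equal levels.

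The wild type libraries were uneven in these genes. Wild type male 3 had the lowest Agtr1a, Ace and Enpep of its group, and a summed level of 7 blood markers of 7210 scaled FPKM, against 700 and 961 in wild type males 1 and 2. Without it, Ace differed between wild type males and females by 1.11 (limma adjusted p = 0.0252) and Enpep by 0.91 (limma adjusted p = 0.0292), and both passed. Without mutant female 2, which is in neither group compared, Agtr1a and Enpep passed (limma adjusted p = 0.0485 and 0.0489), and without mutant female 1 Enpep did (limma adjusted p = 0.0226). The part of blood in these levels was not tested.

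In the mutants the same 3 genes were again higher in males on average. Mutant males exceeded mutant females in Agtr1a by 0.63 on the log2 scale (SE 0.2, limma adjusted p = 0.0824), in Ace by 0.71 (SE 0.25, limma adjusted p = 0.105) and in Enpep by 0.54 (SE 0.19, limma adjusted p = 0.106). Agt differed by -0.51 (SE 0.25, limma adjusted p = 0.23). By limma 0 of these 4 members passed after adjustment, beside 7.49% of all genes tested. Of the 4, 3 had an unadjusted p under 0.05, again with no share of all genes at that threshold. Of the 4, Ace and Agt had groups that did not overlap, against 24.7% of all genes tested. Agtr2 was 0.75 higher (SE 0.25) in mutant males on the log2 scale, with overlapping groups, and has no test here. Without mutant female 2, Agtr1a differed by 0.84 (limma adjusted p = 0.0229).

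Averaged over both genotypes, 3 of the 4 members other than Agtr2 rose in males. This average was chosen after the comparisons within each genotype had been seen, and it uses the same libraries, so it is no independent support for them. Males exceeded females in Agtr1a by 0.67 on the log2 scale (SE 0.14, limma adjusted p = 0.0119), in Ace by 0.78 (SE 0.18, limma adjusted p = 0.0148) and in Enpep by 0.65 (SE 0.13, limma adjusted p = 0.0103). Agt differed by -0.41 (SE 0.17, limma adjusted p = 0.147), and 13.5% of all genes tested passed. Agtr2 differed by 0.41 (SE 0.18), given without a test because it includes the mutant females.

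These 3 sex differences passed with each of the 12 libraries left out in turn and with the GC and length correction, where they were 0.70, 0.75 and 0.60 in Agtr1a, Ace and Enpep (limma adjusted p = 0.011, 0.0198 and 0.016). The median log2 differences of the 5 GC classes between males and females lay between -0.02 and 0.03 in the wild type and between -0.07 and 0.14 in the mutants. By limma 0 of 10 endothelial, 0 of 8 pericyte and 0 of 10 smooth muscle markers passed over both genotypes, with 1 of each list at an unadjusted p under 0.05, and the median log2 differences of these lists were 0.12, 0.05 and -0.03. Of 12 mesenchymal markers 2 rose and 2 fell, and of 12 epithelial markers 2 rose and 1 fell. Of 10 skeletal muscle markers 4 rose in males over both genotypes, with a median log2 difference of 0.45, while 4 rose in the wild type and 0 rose and 1 fell in the mutants. Beside the marker counts given here, 13.5% of all genes tested passed over both genotypes, 3.18% in the wild type and 7.49% in the mutants. In the wild type their sum was 954 to 1310 scaled FPKM in males and 593 to 798 in females, and in the mutants 561 to 912 in males and 572 to 690 in females. Of 9 neural markers tested 1 rose, with a median log2 difference of 0.7, and their sum was 272 to 307 in wild type males against 180 to 226 in wild type females, and 175 to 221 in mutant males against 26.6 to 233 in mutant females. Of 7 blood markers 0 passed by limma between the sexes. Their median log2 difference was -2.19 in the wild type, with 7 at an unadjusted p under 0.05, and 0.35 in the mutants. Of 8 immune markers 0 rose and 1 fell over both genotypes, with a median log2 difference of -0.25. The part of muscle, nerve, blood, immune cells or vagina in the sex differences was not tested.

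The wider pathway was followed in 21 further genes, of which 20 were in the table and 14 passed the filter. The renin gene Ren1, the enzyme that starts the cascade, had 0.203 to 0.379 scaled FPKM in mutant males against 0.314 to 0.701 for wild type males, and 0.429 to 0.876 in mutant females against 0.25 to 0.463 for wild type females, and was not tested. The other type 1 receptor gene, Agtr1b, and the receptors of shorter angiotensins, Mas1 and Mrgprd, were also under the filter, with at most 0.526 scaled FPKM in any library. Agtr1a and Agtr1b are close copies, and how reads shared between them were divided was not stated.

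Of the 14 genes tested, 1 rose and 2 fell between mutant and wild type males, with a median log2 difference of -0.21. Over all genes 20.3% passed in this comparison, a share near that of the list. Atp6ap2, the (pro)renin receptor and a subunit of the vacuolar proton pump, averaged 15.5 ± 0.181 scaled FPKM in mutant males and 23.5 ± 1.64 in wild type males (SD, n = 3 each), and fell by 0.58 on the log2 scale (SE 0.11, limma adjusted p = 0.00619). Lnpep, the insulin-regulated aminopeptidase that binds angiotensin IV, fell by 0.50 on the log2 scale (SE 0.13, limma adjusted p = 0.0198). Rnpep, aminopeptidase B, was at 19.7 to 20.2 scaled FPKM in mutant males and 11.8 to 17.0 in the wild type males, and rose by 0.52 on the log2 scale (SE 0.12, limma adjusted p = 0.014). The calls of Atp6ap2 and Lnpep ended with the GC and length correction (log2 differences -0.22 and -0.23, limma adjusted p = 0.196 and 0.159). That of Rnpep ended without wild type male 1 (0.41, limma adjusted p = 0.062) and with FPKM as deposited (0.37, limma adjusted p = 0.215), and that of Lnpep without mutant male 1, mutant male 2, wild type male 1 or wild type male 3 (limma adjusted p = 0.0848, 0.0741, 0.076 and 0.0521).

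**Figure D4:**
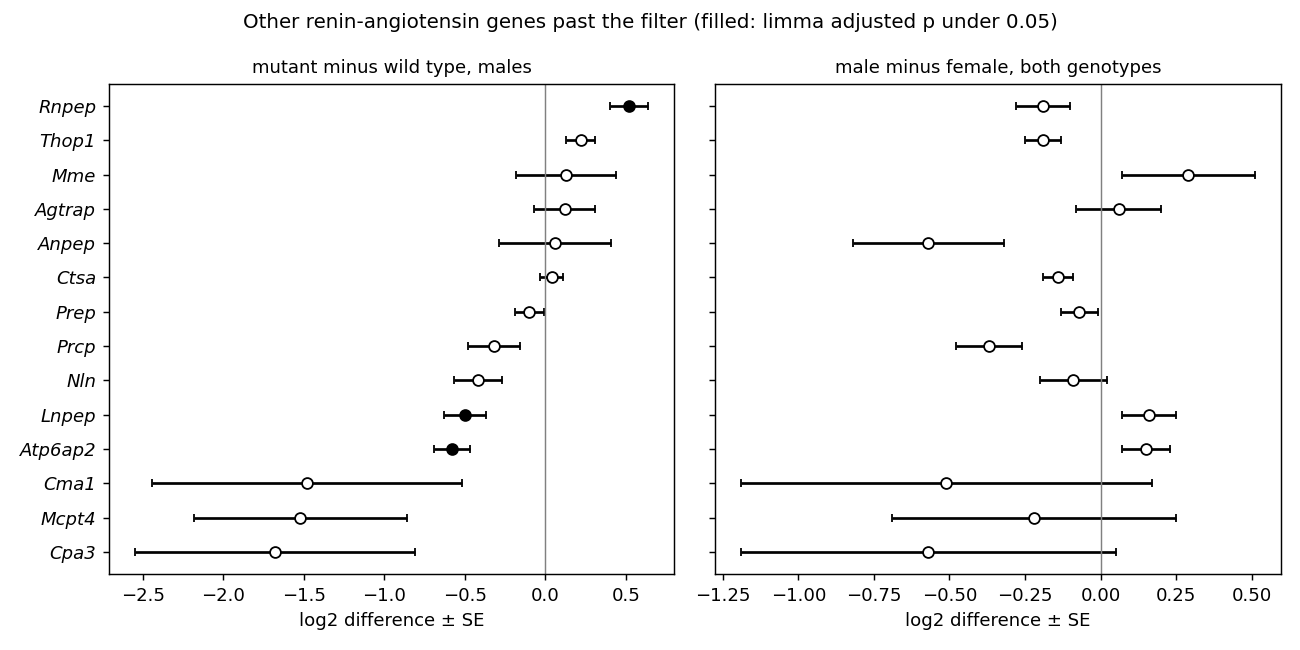
Log2 difference and SE (limma) of the 14 other renin-angiotensin genes past the filter, between mutant and wild type males (left) and between males and females averaged over both genotypes (right); filled circles passed at an adjusted p under 0.05. On the left Rnpep rose and Atp6ap2 and Lnpep fell, and on the right no gene passed.

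The most abundant of these genes did not pass in males. Ctsa, a lysosomal carboxypeptidase, averaged 39.0 ± 0.869 scaled FPKM in mutant males and 37.9 ± 1.01 in wild type males, and Mme, neprilysin, which cuts angiotensin I to a shorter peptide, averaged 25.8 ± 4.80 in mutant males and 23.4 ± 3.40 in wild type males (SD, n = 3 each). Their log2 differences were 0.04 (SE 0.07) and 0.13 (SE 0.31), with limma adjusted p = 0.739 and 0.798. Cma1, Mcpt4 and Cpa3, proteases of mast cells, of which chymase (Cma1) can form angiotensin II, varied widely within groups. Cma1 spanned 0.738 to 4.2 scaled FPKM in mutant males and 3.58 to 12.3 in the wild type males, 0.486 to 21.5 in mutant females and 4.86 to 16.3 in the wild type females. The summed mast cell markers, which include these 3 genes, ranged from 7.59 to 72.4 in mutant females and from 22.3 to 57.0 in wild type females. Between wild type males and females, between mutant males and females and over both genotypes, 0 of the 14 genes passed by limma. An unadjusted p under 0.05 was seen for 2, 4 and 5 of them. Of all genes tested, 3.18%, 7.49% and 13.5% passed after adjustment, in that order.

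Proteins that bind the angiotensin receptors or carry their signal were represented by 14 genes, of which 13 were tested. Between mutant and wild type males 2 of the 13 fell and 0 rose, beside 11.6% of all genes tested that fell. Gnai3, a G protein subunit of the inhibitory class, averaged 39.5 ± 2.27 scaled FPKM in mutant males and 61.5 ± 4.90 in wild type males, and Ppp2ca, the catalytic subunit of protein phosphatase 2A, averaged 22.2 ± 1.75 in mutant males and 34.0 ± 0.626 in wild type males (SD, n = 3 each). Gnai3 fell by 0.63 (SE 0.08, limma adjusted p = 0.00178) and Ppp2ca by 0.61 (SE 0.08, limma adjusted p = 0.00204) on the log2 scale. With the GC and length correction both passed, with Gnai3 at -0.31 and Ppp2ca at -0.45 (limma adjusted p = 0.0226 and 0.0157). The abundant Gnai2 and Gna11 did not pass, with log2 differences of 0.26 and -0.03 (limma adjusted p = 0.108 and 0.845).

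Between the sexes the partner gene with the largest difference was Zbtb16, which encodes the zinc finger protein PLZF, reported to bind the type 2 receptor. It spanned 3.44 to 4.45 scaled FPKM in mutant males against 0.884 to 1.74 in mutant females, and 1.72 to 3.16 in wild type males against 0.338 to 0.703 in the wild type females. Males lay above females without overlap in both genotypes. Groups that did not overlap, in either direction, were seen for 24.7% of all genes tested in mutants and 31.8% in the wild type. Zbtb16 was higher in males by 1.36 in mutants (SE 0.23, limma adjusted p = 0.00723) and by 1.55 in the wild type (SE 0.23, limma adjusted p = 0.00506) on the log2 scale, and it passed under every alternative in which it was tested. In the wild type it was the only 1 of the 13 to pass, beside 3.18% of all genes tested. Among the mutants 3 of the 13 passed, beside 7.49% of all genes tested. In mutants Gnaq, a Gq subunit, and Bdkrb2, the bradykinin B2 receptor, also rose in males, by 0.38 and 0.44 on the log2 scale (limma adjusted p = 0.0249 and 0.0384). With a library left out these adjusted p were 0.0189 to 0.0908 for Gnaq and 0.0329 to 0.114 for Bdkrb2. The GC and length correction ended both calls (limma adjusted p = 0.0526 for Gnaq and 0.071 for Bdkrb2), as did FPKM as deposited (0.25 and 0.199) and a fit of only the groups compared (0.12 and 0.178). That of Bdkrb2 also ended without a filter (0.0842) and with the replicate block (0.0604). Averaged over both genotypes, as chosen afterwards, 3 of the 13 rose and 0 fell, beside 13.5% of all genes tested. Zbtb16 rose by 1.46, Gnaq by 0.28 and Bdkrb2 by 0.26 (limma adjusted p = 0.000276, 0.0125 and 0.0497). The Gnaq call held with the correction (0.0235) and with each library left out (up to 0.0401). FPKM as deposited ended the calls of Gnaq (0.109) and Bdkrb2 (0.159), and the correction that of Bdkrb2 (0.0748).

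The aldosterone axis, a main output of the type 1 receptor in the adrenal gland, was followed in 7 genes. Aldosterone synthase, Cyp11b2, was listed at 0 in all 12 libraries, and the other 6 genes were tested. Between mutant and wild type males 0 of 6 passed by limma, beside 20.3% of all genes tested, and 0 had an unadjusted p under 0.05. Of the most abundant, Sgk1, a kinase induced by mineralocorticoids, had a log2 difference of 0.19, Hsd11b2, which inactivates glucocorticoids, 0.17, and the sodium channel subunits Scnn1b and Scnn1g 0.13 and 0.26. In the wild type 0 of 6 passed by limma between the sexes, with 3 at an unadjusted p under 0.05. Of all genes tested, 3.18% passed between the sexes in the wild type, 7.49% in the mutants and 13.5% over both genotypes. Over both genotypes Sgk1 rose in males by 0.77 on the log2 scale (SE 0.15, limma adjusted p = 0.00723). The mineralocorticoid receptor Nr3c2 passed the filter only through the mutant females. It had 1.19, 1.49 and 1.22 FPKM as deposited in their libraries and at most 0.971 in any other. Sex differences of Nr3c2 that include this group are therefore given as a description, with no test. In the mutants it averaged 0.666 ± 0.208 scaled FPKM in males and 1.36 ± 0.120 in females (SD, n = 3 each), a log2 difference of -0.69 (SE 0.17). Over both genotypes the log2 difference of Nr3c2 was -0.54 (SE 0.12).

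Genes whose levels ran like those of Agtr2 over the 12 libraries were found by centring each gene on its own mean and taking the mean absolute log2 difference from Agtr2. The 6 closest were Arxes2 (0.132), Idi1 (0.201), Zfp808 (0.204), Pi15 (0.205), Gmfb (0.205) and Cenpk (0.206), against a median of 0.73 over all genes tested. They were picked for their small distances, so their place below the median was fixed in advance. The distances also contain the mutant female values that chose Agtr2, so the list is a description. Arxes2 spanned 2.05 to 4.07 scaled FPKM in mutant males against 5.89 to 6.55 for the wild type males, and 1.27 to 2.14 in mutant females against 4.99 to 5.32 for the wild type females. Like Agtr2, it is on the X chromosome. All 6 lay in the lower part of the GC distribution of the genes tested, at percentiles between 0.0728 and 18.3. Among the members, Enpep was nearest to Agtr2 at 0.441, followed by Agtr1a at 0.598, Agt at 0.709 and Ace at 1.02, so Ace was farther from Agtr2 than the median gene.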

How the data were processed

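The authors deposited FPKM values for 56495 genes in the 12 libraries, per the file headers, with 0 columns of other samples. Per the labels' protocols, total RNA of a RIN above 9.5 was depleted of ribosomal RNA, and the stranded libraries were read from a single end. Per the submitters' processing notes, bedtools 2.30.0, Cufflinks 2.2.1, cutadapt 4.1 and STAR 2.7.10a were used with the builds mm39 and mm10, and the annotation and masked genes were not given in the sources used here. Only 2.74% of matched genes shared their end with GENCODE M21 on GRCm38, so positions are given as mm39, with 1 added to starts counted from 0. FPKM hold no counts. Depth was read in relative terms from values under 0.05 FPKM, of which, in the libraries other than wild type male 1, the standard for the steps, 79.9% to 82.7% lay within 0.03 log2 units of whole reads, and no counting interval was computed.

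Libraries were scaled by median ratios over the 11897 genes that reached 1 FPKM in every library. The 13904 genes that reached 1 FPKM in 3 or more libraries were fitted as log2 of scaled FPKM plus 0.5 with limma 3.58.1 in R 4.3.3, with 1 mean per group over all 12 libraries, an intensity trend, two-sided moderated tests and Benjamini-Hochberg adjustment over all of them, and passed at an adjusted p under 0.05. The fitting steps were tested on simulated data. GC content and transcript length came from GENCODE M21 and covered 98.8% of the genes tested. The members and lists were chosen with earlier results of these data known. The genes named are the 5 members, list genes that passed a test, the 4 most abundant of each list and the 6 most like Agtr2. Alternatives were pseudocounts of 0.1 and 1, no filter or a filter at 5 FPKM, FPKM as deposited, scaling to the library sum without Rn7sk, fits of only the groups compared, no intensity trend, a replicate block, the GC and length correction, and each library left out. A further gene of the pathway is not reported here.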

Additional observations from a re-analysis of the deposited data

How the results depend on the processing

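In males the count of members that passed, 2, was 1 without a filter, 1 with scaling to the library sum without Rn7sk, 1 with the replicate block, 0 with the GC and length correction, and 0 to 2 with each library left out. In the wild type the count by sex, 0, was 2 in a fit of only those groups and 0 to 2 with a library left out. In mutants the count by sex, 0, was 3 with the sum scaling, 1 with the replicate block (Agtr1a, 0.63, limma adjusted p = 0.0463) and 0 to 1 with a library left out. The average over both genotypes kept a count within 1.5 times of 3 in all 21 alternatives; it was 2 only with the filter at 5 FPKM, which left Agtr1a and Agt untested. Of the other renin-angiotensin genes, 3 in males became 5 in a fit of only those groups, 1 with the GC and length correction and 1 to 4 with a library left out, and 0 by sex in the wild type became 0 to 1. The wild type sex difference of Agtr2, 0.07, was 0.0 with the GC correction and -0.04 to 0.14 with a library left out, below 0 without wild type female 1. The cause was not tested, except that fits of 1 library fewer have fewer degrees of freedom. Deviations of same-numbered libraries from their group means correlated from -0.226 to 0.317. Libraries of different numbers were not compared in this way, so whether the replicate numbers pair the libraries was not tested. Enpep in males had limma adjusted p = 0.0755 with no filter, 0.055 with the sum scaling and 0.0503 with the block.

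Counts over all genes also moved. In males 2820 passed, against 1350 (8.96% higher, against 42.6%) with FPKM as deposited, which shifted the median gene by -0.14, 595 with the GC correction and 1240 to 3948 with a library left out. By sex, 442 in the wild type became 243 with a filter at 5 FPKM, 254 as deposited, 1247 with only those groups and 160 to 990 with a library left out. In mutants 1042 became 661 without a filter, 401 as deposited, 215 with only those groups and 433 to 1369 with a library left out. The sum scaling gave 6171, with the median gene at 0.31. Over both genotypes 1878 became 931 as deposited and 5751 with the sum scaling, where the median gene was at 0.2 and Agtr1a, Ace and Enpep at 0.83, 0.97 and 0.84. Leaving a library out gave 1093 to 2726. FPKM give no counts, so the precision of the low genes Agt and Agtr1a rests on 3 libraries per group.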
